A study of Mus musculus with 24 samples.

Results

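Acod1 and 9 genes of the interleukin-1 and inflammasome system were followed through 24 RNA sequencing libraries of microglia and astrocytes from mouse brain. The members were chosen by name and are Acod1, Il1b, Il1a, Il1rn, Il18, Il18bp, Nlrp3, Casp1, Casp4 and Gsdmd, 10 genes among the 52404 identifiers shared by the microglia and astrocyte count tables. The study asked what loss of Serpine2, the gene of the protease inhibitor protease nexin-1, does to these cells with and without lipopolysaccharide (LPS), a component of bacterial outer membranes. Each cell type had 4 groups of 3 libraries: Serpine2 knockouts (Serpine2-/-) injected with LPS, controls injected with LPS, knockouts injected with saline and controls injected with saline. Controls were littermates that kept 1 or both working copies of the gene, so heterozygous and wild-type mice were not told apart, and all mice were adult, of both sexes. The dose of LPS, the time after injection and the strain were not given in the sources used here. Microglia were panned on antibody-coated dishes from whole brain after douncing and a Percoll step, and astrocytes from cerebral cortex after papain digestion. Whether the libraries of a group came from separate mice was not stated, so the tests measure the spread between these libraries.

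Interleukin-1 beta and interleukin-18 are made as inactive precursors. An inflammasome is a protein complex in which a sensor such as NLRP3 activates caspase-1, which cuts these precursors and also gasdermin D, whose fragment then forms pores in the cell membrane. Caspase-11, the product of mouse Casp4, is activated by LPS inside cells and cuts gasdermin D as well. The system has soluble brakes, the interleukin-1 receptor antagonist (Il1rn) and the interleukin-18 binding protein (Il18bp). Acod1 encodes the mitochondrial enzyme that makes itaconate from an intermediate of the tricarboxylic acid cycle, and macrophages and microglia switch it on together with Il1b when they sense LPS.

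The libraries held 4506142 to 13621776 counts on genes in microglia and 10944765 to 25135252 in astrocytes, and levels are given as CPM, a gene's share of its library's gene counts brought to a common total with TMM factors. Serpine2 stood at 16.4 to 22.2 CPM in the knockout libraries of both cell types, against 46.4 to 169 CPM in the control libraries, and the groups did not overlap. In 23 of 24 libraries Xist and Y-linked transcripts went with the labelled sex. The 14 microglia markers summed to 2620 to 7802 CPM in microglia libraries and 174 to 786 CPM in astrocyte libraries, and the 12 astrocyte markers to 18724 to 25393 CPM in astrocyte libraries and 1005 to 1599 CPM in microglia libraries. Microglia libraries also held 2413 to 3369 CPM of 10 neuron markers and 415 to 2607 CPM of 13 neutrophil markers. The 8 oligodendrocyte markers summed to 1391 to 4244 CPM in microglia libraries and 1912 to 5184 CPM in astrocyte libraries. Each level is thus that of a preparation and not of a pure cell type. In such bulk RNA, fewer cells of a type and less RNA per cell cannot be told apart.

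All 10 members were tested in each cell type after a filter on low counts, with 22230 genes tested in microglia and 18188 in astrocytes. Acod1, Il1rn and Gsdmd had at most 10 counts in any saline astrocyte library, and they passed the filter there through their LPS libraries. Casp1, Casp4 and Nlrp3 had more counts, but too few saline astrocyte libraries reached the filter's level. They also passed only with their LPS libraries. A gene was called at an adjusted p under 0.05 (edgeR's quasi-likelihood test, two-sided, with Benjamini-Hochberg adjustment over all genes tested). Microglia had 3 members called higher with LPS when both genotypes were averaged, Acod1, Il1b and Il1rn, and 0 called lower. Over all genes tested in that comparison 2.70% were called in either direction. Astrocytes had 5 members called higher, Acod1, Il1rn, Il18bp, Casp1 and Gsdmd, and 0 lower, where 6.90% of all genes were called. The median log2 fold change of the 10 members was 0.41 in microglia, against −0.03 over all genes, and 2.02 in astrocytes, against 0.01 over all genes. Members that passed the filter only with LPS libraries could hardly fall, so these medians describe the list and do not test it.

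**Figure D1:**
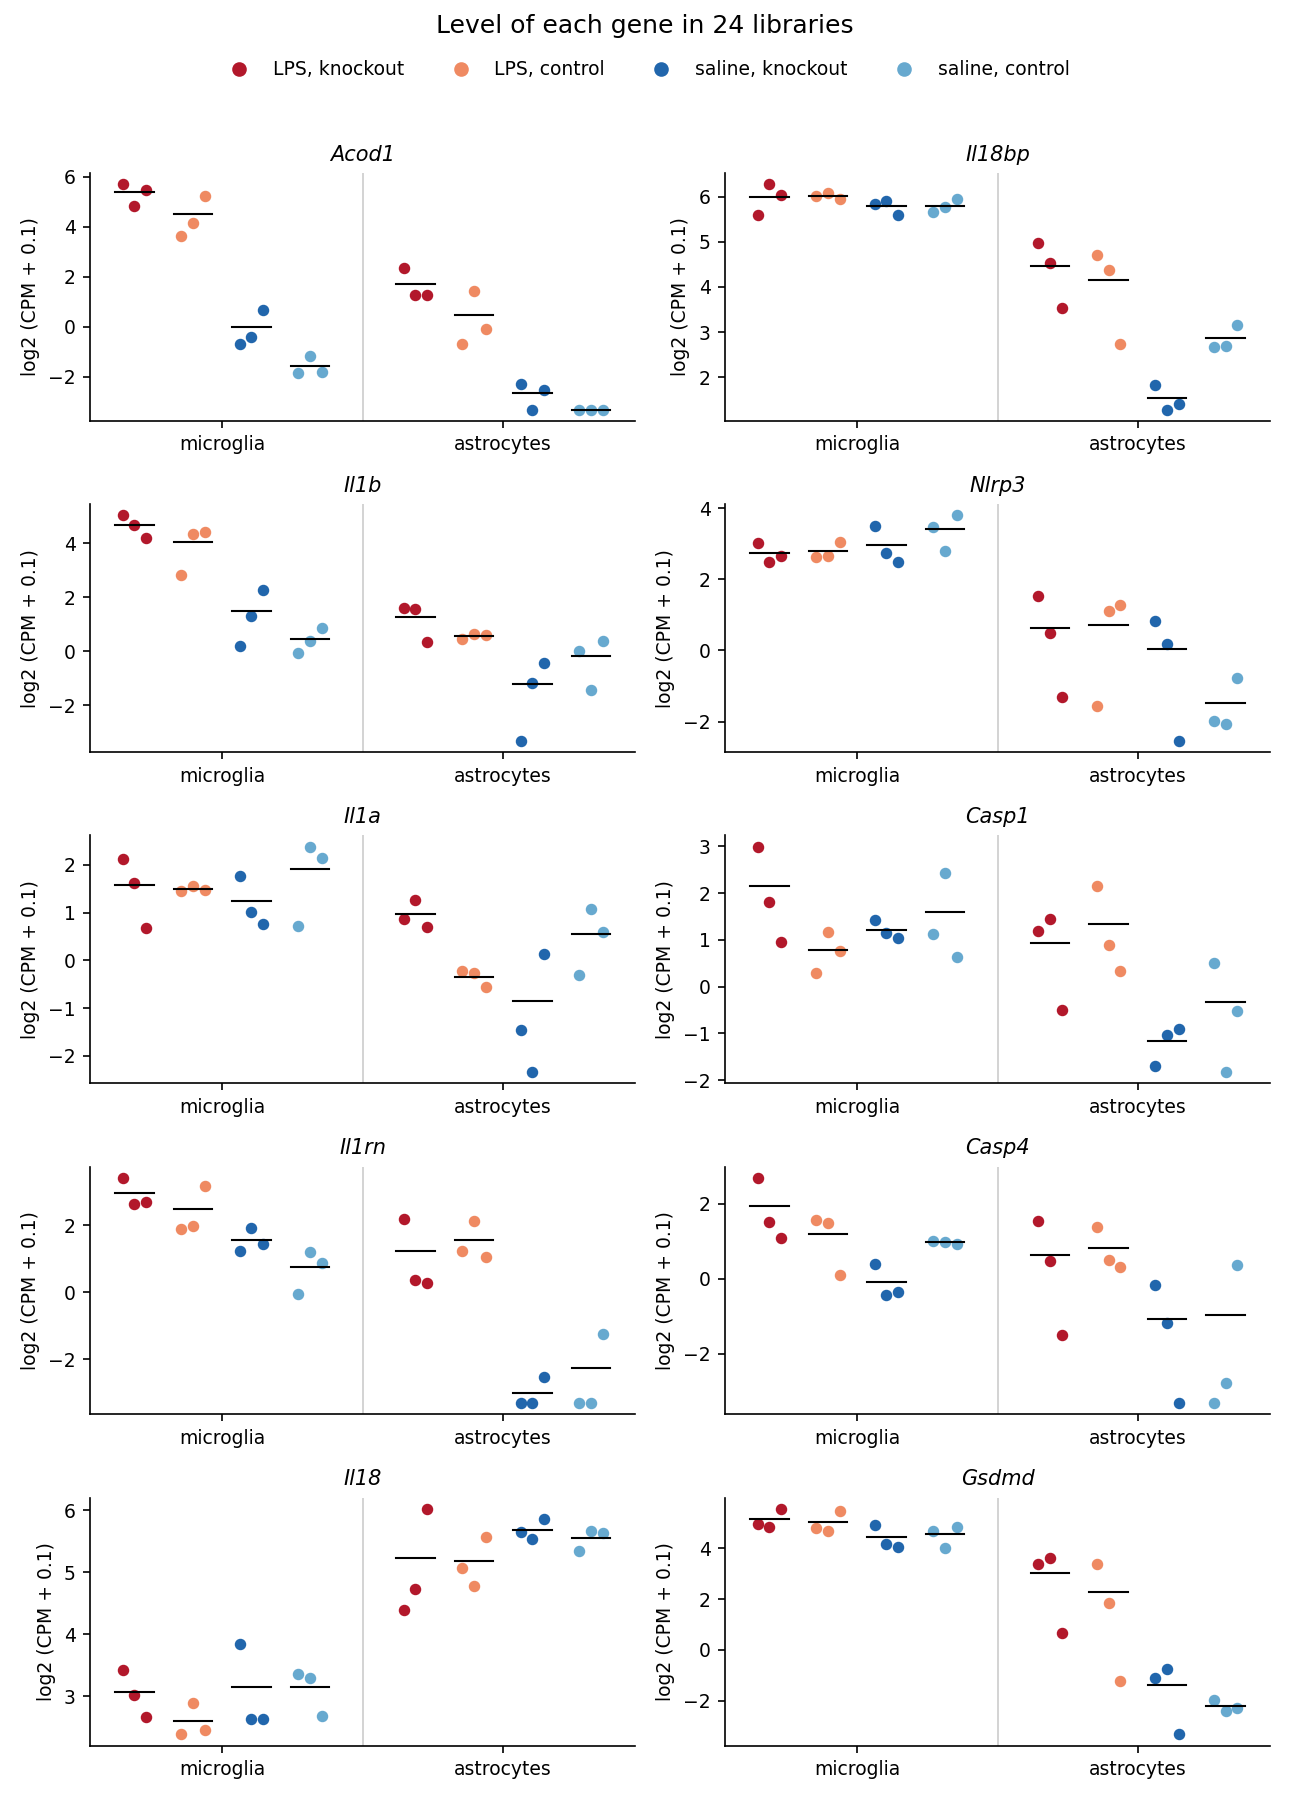
Level of each of the 10 genes in the 24 libraries, as log2 of CPM plus 0.1, with 3 points per group and a bar at the group's mean CPM. In each cell type the groups run from LPS knockout and LPS control to saline knockout and saline control. All 6 LPS libraries lie above all 6 saline libraries for Acod1 in both cell types, for Il1b in microglia and for Il1rn in astrocytes.

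**Figure D2:**
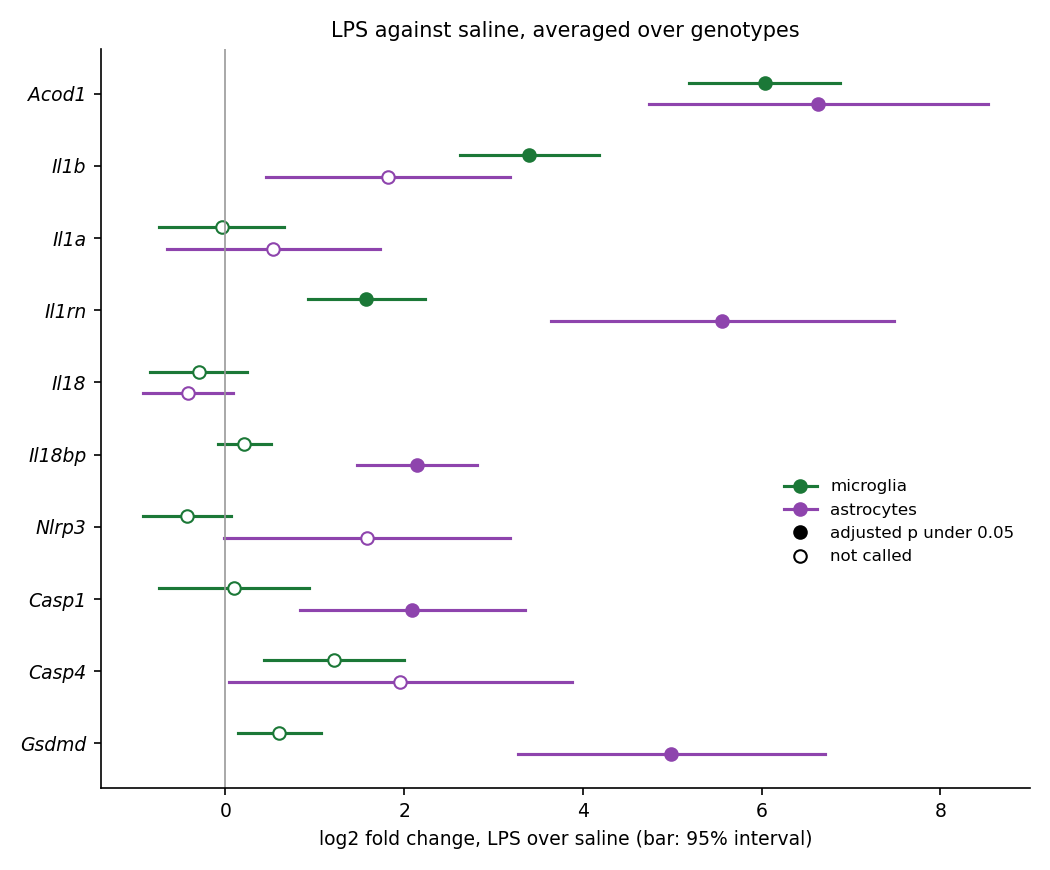
Log2 fold change of LPS over saline, averaged over genotypes, with 95% intervals from the edgeR fit and microglia above astrocytes for each gene. Filled circles mark an adjusted p under 0.05, which 3 genes reach in microglia and 5 in astrocytes.

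Acod1 (ENSMUSG00000022126, GRCm38 chromosome 14, 103046977 to 103056573, plus strand) had the largest change of the 10 members in microglia, averaged over genotypes and within each. In LPS microglia it stood at 51.8, 28.1 and 43.7 CPM in knockouts and at 12.2, 17.6 and 37.8 CPM in controls. In saline microglia it stood at 0.519, 0.644 and 1.49 CPM in knockouts and at 0.172, 0.341 and 0.181 CPM in controls. Every LPS library was thus far above every saline library, and in saline the gene was near the detection limit, with 5 counts in all in the 3 control libraries. In microglia too, Acod1 passed the filter on low counts through its LPS libraries. With the genotypes averaged, LPS microglia were higher by 6.04 on the log2 scale (SE 0.40, 95% interval 5.19 to 6.88, edgeR adjusted p 9.62e-07). Within knockouts it was 5.50 (SE 0.50, adjusted p 9.23e-05) and within controls 6.58 (SE 0.62, adjusted p 0.000118). Those single-genotype comparisons called 2 members each, Acod1 and Il1b, where 1.14% of all genes were called in knockouts and 0.576% in controls.

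Astrocyte libraries carried far less Acod1. After LPS they held 5.0, 2.31 and 2.29 CPM in knockouts and 0.518, 2.56 and 0.823 CPM in controls. After saline they held 0.105, 0 and 0.0717 CPM in knockouts, while the 3 control libraries had 0 counts. The groups did not overlap, and the saline side was a matter of 3 counts in all. The control libraries summed to 56 counts after LPS and 0 after saline, at least 23.8-fold higher when the saline group is set at a floor of 3 counts over the group. The knockout libraries summed to 224 counts after LPS and 3 after saline, a ratio of 61.0 (exact 95% interval 20.6 to 298, counting error only). The fitted value averaged over genotypes was 6.63 on the log2 scale (SE 0.89, edgeR adjusted p 0.000455), a size that depends on the prior count where a group is at 0. Setting Acod1 at its bound left the members' median at 2.02, because the bound also lay above that median. This step therefore does not test the median. The ratio of Il1rn was larger in knockout astrocytes, and in controls the bound lay below the ratios of Gsdmd (49.6) and Il1rn (27.6), so Acod1 was not shown to lead there.

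The promoter of Acod1 is shown because the gene had the largest change in microglia. The window (RefSeq, GRCm38.p6, chr14:103046762-103047061, plus strand) runs from 250 bases before the annotated start to 50 after it. Capitals mark a match to a pattern of the factor NF-kB, GGGA then any 4 bases then CC, searched on both strands. Its first base lies at −55, counted back from the start site.

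Acod1 promoter: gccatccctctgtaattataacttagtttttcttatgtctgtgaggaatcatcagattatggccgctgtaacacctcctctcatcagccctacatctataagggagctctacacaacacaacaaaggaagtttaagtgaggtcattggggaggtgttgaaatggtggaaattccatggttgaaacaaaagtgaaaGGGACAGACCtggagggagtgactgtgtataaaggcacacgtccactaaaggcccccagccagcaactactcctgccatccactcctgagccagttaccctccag

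Il1b, the gene of interleukin-1 beta (ENSMUSG00000027398, chromosome 2, 129364570 to 129371139, minus strand), was the second member called in microglia of each genotype. After LPS it stood at 32.7, 25.8 and 18.1 CPM in knockout microglia and at 6.99, 20.3 and 21.6 CPM in control microglia. After saline it stood at 1.04, 2.39 and 4.69 CPM in knockouts and at 0.861, 1.19 and 1.72 CPM in controls. The lowest LPS library, a control, still lay above the highest saline library, a knockout. Averaged over genotypes it rose by 3.40 on the log2 scale (SE 0.36, edgeR adjusted p 6.06e-05), with 3.18 in knockouts (SE 0.49) and 3.61 in controls (SE 0.54). Astrocyte libraries held 2.98, 2.85 and 1.17 CPM after LPS in knockouts and 1.27, 1.46 and 1.40 CPM in controls, against 0, 0.342 and 0.645 CPM after saline in knockouts and 0.918, 0.273 and 1.19 CPM in controls. Within each genotype the LPS libraries were above the saline libraries, by less than 0.1 CPM between the nearest controls, and the averaged change of 1.82 (SE 0.65) was not called (edgeR adjusted p 0.107), although DESeq2 called it (1.84, adjusted p 0.0254).

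Its promoter window (RefSeq, GRCm38.p6, chr2:129371090-129371389, minus strand) is shown beside that of Acod1 as the other gene called in microglia of both genotypes. It held no match to any of the 4 patterns searched, which were that of NF-kB, TGANTCA of AP-1 (N is any base), GAAA then any 2 bases then GAAA of interferon regulatory factors, and TTGCNNAA of C/EBP factors. Those patterns were found in 20.7%, 7.81%, 3.44% and 10.8% of 32851 mouse promoters of the same length.

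Il1b promoter: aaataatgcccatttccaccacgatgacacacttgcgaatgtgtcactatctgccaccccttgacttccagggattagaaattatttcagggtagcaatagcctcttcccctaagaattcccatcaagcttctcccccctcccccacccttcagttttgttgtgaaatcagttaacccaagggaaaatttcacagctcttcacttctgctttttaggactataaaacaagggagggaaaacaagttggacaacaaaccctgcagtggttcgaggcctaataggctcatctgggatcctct

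Il1a, the gene of interleukin-1 alpha, which acts on the same receptor without needing caspase-1, did not follow Il1b. In microglia it stood at 4.25, 2.96 and 1.5 CPM in LPS knockouts and 2.63, 2.82 and 2.68 CPM in LPS controls, against 3.29, 1.93 and 1.60 CPM in saline knockouts and 1.55, 5.12 and 4.34 CPM in saline controls. The groups overlapped, and the value averaged over genotypes was −0.04 log2 units (95% interval −0.74 to 0.66, edgeR adjusted p 0.977). In astrocytes it stood at 1.73, 2.31 and 1.53 CPM in LPS knockouts and 0.753, 0.731 and 0.576 CPM in LPS controls, against 0.263, 0.0976 and 1.00 CPM in saline knockouts and 0.714, 2.01 and 1.40 CPM in saline controls. The LPS libraries lay above the saline libraries in knockouts and mostly below them in controls. The averaged value was 0.53 (−0.66 to 1.72, adjusted p 0.672). An antisense transcript shares 222 exon bases with Il1a, 11.2% of its exons, and another shares 25 with Il1b. No strand setting of the counting was stated, so reads of these pairs cannot be told apart.

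Il1rn, the receptor antagonist that blocks both interleukins (ENSMUSG00000026981, chromosome 2, 24336853 to 24351494, plus strand), was called in both cell types. In microglia it stood at 10.6, 6.13 and 6.44 CPM in LPS knockouts and 3.61, 3.86 and 8.99 CPM in LPS controls. Saline libraries held 2.25, 3.68 and 2.63 CPM in knockouts and 0.861, 2.22 and 1.72 CPM in controls. Within each genotype LPS was above saline in every library, and across genotypes the lowest LPS control fell just below the highest saline knockout. Averaged over genotypes, Il1rn rose by 1.58 log2 units (SE 0.31, edgeR adjusted p 0.00931), while neither genotype passed alone (adjusted p 0.18 in knockouts and 0.156 in controls). Neutrophils and monocytes also make Il1b and Il1rn. In LPS against saline microglia the 13 neutrophil markers summed to 415 to 1102 against 762 to 2607 CPM, the 10 monocyte markers to 150 to 405 against 113 to 227 CPM, and the 8 T and NK cell markers to 10.2 to 37.0 against 0.689 to 3.21 CPM. None of these markers was at 0 in all libraries of an injection. With the neutrophil score as a covariate the Il1rn change was 1.67 and no longer called (edgeR adjusted p 0.243). Acod1 (6.01) and Il1b (4.12) stayed called when averaged, and in knockouts alone neither was (edgeR adjusted p 0.174 for both). The score is the mean log2 CPM of the neutrophil markers. In knockout microglia it ran from 3.79 to 5.02 after LPS and from 5.61 to 6.24 after saline, without overlap. There this fit cannot tell neutrophils from LPS. The part of monocytes and lymphocytes was not tested.

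Astrocytes had a larger shift in Il1rn from almost no counts. LPS libraries held 4.48, 1.18 and 1.12 CPM in knockouts and 2.26, 4.24 and 1.98 CPM in controls. Saline libraries held 0, 0 and 0.0717 CPM in knockouts and 0, 0 and 0.324 CPM in controls. All 6 LPS libraries lay above all 6 saline libraries, 4 of which had 0 counts. Its averaged change was 5.56 log2 units (SE 0.91, edgeR adjusted p 0.00143), and it was 6.45 in knockouts (SE 1.40, adjusted p 0.0278) and 4.68 in controls (SE 1.16, adjusted p 0.0686). In knockouts 166 counts after LPS stood against 1 after saline, a ratio of 136 with an exact 95% interval of 24 to 5386 that covers counting error only. Knockout astrocytes had 4 members called, Acod1, Il1rn, Il18bp and Gsdmd, where 1.56% of all genes were called, and control astrocytes 2, Acod1 and Gsdmd, where 0.929% were. Of these, Il18bp in knockouts held in each of the 12 fits that left out 1 library. Acod1 and Il1rn in knockouts were lost without any of the 3 saline knockout libraries or without the first LPS knockout, with adjusted p of 0.0522 to 0.109 and of 0.0714 to 0.145. Acod1 in controls was lost without any of the 3 saline controls or without the second LPS control (adjusted p 0.0782 to 0.103). Gsdmd in knockouts held in 3 of the 12 fits, those without LPS control 1 or 3 or LPS knockout 3, and its adjusted p reached 0.191. Gsdmd in controls held in 4 of the 12, those without LPS control 3, saline knockout 3 or LPS knockout 1 or 3, and its adjusted p reached 0.251.

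One of the 3 promoter windows of Il1rn, that of the upstream start (RefSeq, GRCm38.p6, chr2:24336610-24336909, plus strand), held matches to 2 patterns and is shown for comparison with Acod1. Capitals mark TGAGTCA, a match to the AP-1 pattern with its first base at −141, and GGGAGTGGCC, a match to the NF-kB pattern at −54.

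Il1rn promoter, upstream start: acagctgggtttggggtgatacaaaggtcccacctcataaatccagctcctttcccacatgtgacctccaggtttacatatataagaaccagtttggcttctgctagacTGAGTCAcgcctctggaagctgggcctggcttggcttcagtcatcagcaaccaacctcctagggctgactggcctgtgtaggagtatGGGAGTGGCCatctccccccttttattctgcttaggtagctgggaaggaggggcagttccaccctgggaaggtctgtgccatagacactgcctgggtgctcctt

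The other matches among the 13 windows of 9 members were an NF-kB match in 1 window of Nlrp3 and in both overlapping windows of Casp4, an AP-1 match in Il1a and a C/EBP match in Il18bp. Matches are letters in a window and say nothing of binding.

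Il18 and its binding protein led the members in level per length, each in another cell type. Per kilobase of merged exons, Il18 averaged 35.7 CPM after LPS and 47.8 CPM after saline in astrocytes, where it was first after both injections (n = 6 libraries each). In CPM, Il18 ran from 5.11 to 14.2 with a median of 6.82 in microglia libraries and from 20.8 to 64.8 with a median of 47.0 in astrocyte libraries. No microglia library reached the lowest astrocyte library, although the cell types were scaled separately and differed in brain region and preparation. Il18bp averaged 21.2 CPM per kilobase after LPS and 18.3 CPM per kilobase after saline in microglia, where it was first, and 6.58 and 1.65 CPM per kilobase in astrocytes, where it was second.

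The order of the other members in microglia depended on the injection. After LPS, Gsdmd averaged 14.3 CPM per kilobase, Acod1 12.15, Il1b 10.97, Il18 6.90, Casp1 2.00, Nlrp3 1.65, Il1a 1.42, Il1rn 1.19 and Casp4 0.793. Each of these overlapped with its neighbours in the range of its 6 libraries. After saline, Gsdmd averaged 9.41 CPM per kilobase, Il18 8.50, Nlrp3 2.25, Casp1 1.72, Il1a 1.51, Il1b 1.04, Il1rn 0.402, Casp4 0.365 and Acod1 0.213. There Il18bp lay above Gsdmd, and Il18 above Nlrp3, without overlap between libraries, and Acod1 was last, where after LPS it stood behind Il18bp and Gsdmd only. In astrocytes Gsdmd averaged 2.68 CPM per kilobase after LPS and 0.0848 after saline, and Acod1 was again last after saline at 0.01125. Il18 lay above Il18bp in astrocytes without overlap after both injections.

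**Figure D3:**
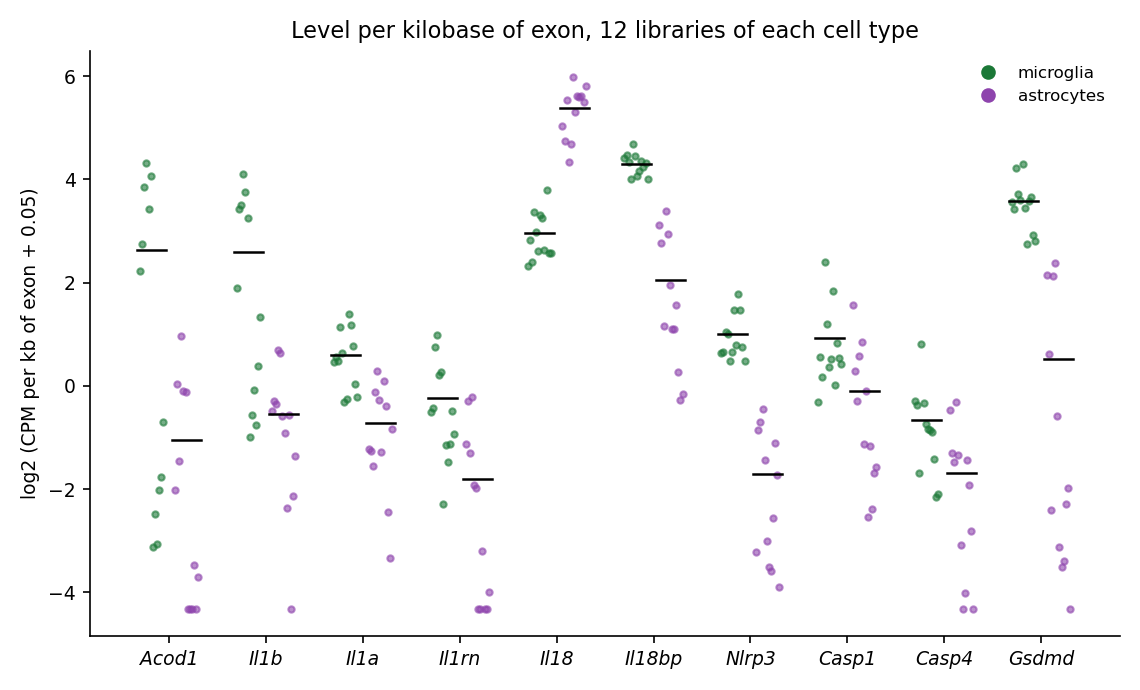
Levels per kilobase of merged exons, as log2 of CPM per kilobase plus 0.05, with 1 point per library (12 of each cell type, microglia left of astrocytes) and a bar at the mean. Il18 is the gene with higher levels in astrocyte libraries, and the other 9 have higher means in microglia libraries.

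Il18 was not called with LPS in either cell type. In microglia it stood at 10.6, 8.03 and 6.26 CPM in LPS knockouts and 5.11, 7.30 and 5.35 CPM in LPS controls, against 14.2, 6.07 and 6.07 CPM in saline knockouts and 10.2, 9.72 and 6.33 CPM in saline controls. In astrocytes it stood at 20.8, 26.4 and 64.8 CPM in LPS knockouts and 33.6, 27.5 and 47.6 CPM in LPS controls, against 50.2, 46.5 and 57.9 CPM in saline knockouts and 40.5, 50.6 and 49.8 CPM in saline controls. The first and second LPS astrocyte libraries of each genotype were below all saline libraries, and the third of each was not. Averaged over genotypes, LPS libraries differed from saline libraries by −0.30 log2 units in microglia (SE 0.25, edgeR adjusted p 0.677) and −0.42 in astrocytes (SE 0.24, adjusted p 0.352). The third LPS astrocyte libraries stood apart in other genes as well: Gbp2, an interferon-induced GTPase gene, was at 13.6 CPM in the knockout and 14.6 CPM in the control, where the highest library was at 706 CPM in the LPS knockouts and 475 CPM in the LPS controls. They were also the only females among the 6 LPS astrocyte libraries, and codes in their deposited names, of a meaning not stated, differed from those of the first and second. Within the LPS astrocytes these features cannot be told apart. Without those 2 libraries, left out after the data had been seen, Il18 was lower with LPS by −0.86 (edgeR adjusted p 0.00298), and without the third LPS knockout alone by −0.74 (adjusted p 0.0153). With all libraries and sex as a covariate it was −0.51 (adjusted p 0.158), and with the neutrophil marker score 0.014 (adjusted p 0.996).

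Il18bp was called higher in astrocytes. LPS libraries held 31.5, 23.0 and 11.5 CPM in knockouts and 26.2, 20.5 and 6.59 CPM in controls, against 3.48, 2.34 and 2.58 CPM after saline in knockouts and 6.32, 6.38 and 8.81 CPM in controls. In knockouts every LPS library was above every saline library, while the third LPS control fell among the saline controls. The gene rose by 2.14 log2 units averaged over genotypes (SE 0.32, edgeR adjusted p 0.000644), with 2.97 in knockouts (SE 0.47, adjusted p 0.00508) and 1.31 in controls (SE 0.44, adjusted p 0.189). In microglia the gene stood between 48.2 and 77.2 CPM in all 12 libraries and the averaged value was 0.21 (95% interval −0.08 to 0.51, adjusted p 0.566). Il18bp shares 80 exon bases, 2.64% of its exons, with Numa1 on the other strand.

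Nlrp3, the sensor, was expressed in microglia with and without LPS. It stood at 7.99, 5.50 and 6.17 CPM in LPS knockouts and 6.09, 6.20 and 8.14 CPM in LPS controls, against 11.1, 6.63 and 5.50 CPM in saline knockouts and 11, 6.82 and 13.8 CPM in saline controls. The groups overlapped, and LPS differed from saline by −0.43 log2 units (SE 0.23, edgeR adjusted p 0.463). Astrocyte libraries ranged from 0.0717 to 2.76 CPM, with libraries of 0.235 and 0.306 CPM after LPS, and the value of 1.58 was not called (SE 0.76, adjusted p 0.254).

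Casp1, which encodes the protease of the inflammasome, was called in astrocytes and not in microglia. LPS astrocytes held 2.17, 2.64 and 0.612 CPM in knockouts and 4.38, 1.75 and 1.15 CPM in controls, against 0.211, 0.391 and 0.430 CPM after saline in knockouts and 1.33, 0.182 and 0.594 CPM in controls. LPS was above saline in every knockout library, and 1 saline control lay within the LPS controls. Over both genotypes the change was 2.09 log2 units (SE 0.60, edgeR adjusted p 0.0426). This call was narrow: it held in 3 of the 12 fits that left out 1 library, those without the first saline control, the third LPS control or the third LPS knockout, with adjusted p from 0.0217 to 0.154 over the 12, and was lost with sex as a covariate (0.067) or the replicate number as a block (0.0597). In microglia the LPS libraries held 7.87, 3.38 and 1.85 CPM in knockouts and 1.13, 2.14 and 1.61 CPM in controls, against 2.60, 2.12 and 1.95 CPM in saline knockouts and 2.07, 5.29 and 1.45 CPM in saline controls. These overlapped, with an averaged value of 0.09 (95% interval −0.75 to 0.93, adjusted p 0.956).

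Casp4, which encodes the sensor caspase of cytosolic LPS, was not called in either cell type. In microglia it stood at 6.37, 2.75 and 2.03 CPM in LPS knockouts and 2.86, 2.69 and 0.964 CPM in LPS controls, against 1.21, 0.644 and 0.687 CPM in saline knockouts and 1.90, 1.88 and 1.81 CPM in saline controls. LPS was above saline in the knockouts, and in controls the LPS libraries spanned the saline ones. The value averaged over genotypes was 1.21 log2 units (SE 0.37, edgeR unadjusted p 0.00478, adjusted p 0.12), with 2.18 in knockouts (SE 0.54, adjusted p 0.0743) and 0.25 in controls (SE 0.49, adjusted p 0.99). The knockout value passed without the third LPS control (edgeR adjusted p 0.0438) and in DESeq2 (adjusted p 0.0121). It also passed with the replicate number as a block (edgeR adjusted p 0.0433), although that number was not shown to pair microglia libraries. With no filter on low counts the averaged value passed too (1.24, edgeR adjusted p 0.0185). Astrocyte libraries held 0.255 to 2.79 CPM after LPS and 0 to 1.19 CPM after saline, a difference of 1.96 (SE 0.91, edgeR adjusted p 0.239) that became 3.84 and was called without the third saline control (adjusted p 0.0402).

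Gsdmd, which encodes the pore-forming gasdermin D (ENSMUSG00000022575, chromosome 15, 75862327 to 75867408, plus strand), differed between the cell types. Astrocytes held 10.2, 12.3 and 1.48 CPM in LPS knockouts and 10.4, 3.51 and 0.329 CPM in LPS controls. After saline they held 0.369, 0.488 and 0 CPM in knockouts and 0.153, 0.0911 and 0.108 CPM in controls. Every LPS library was above every saline library of its genotype, and the third LPS library of each genotype was the lowest of its group. With both genotypes averaged it rose by 4.99 log2 units (SE 0.81, edgeR adjusted p 0.00163), and it was 5.51 without the third libraries. Microglia carried the gene throughout, at 31.0, 28.5 and 46.6 CPM in LPS knockouts and 28.1, 25.3 and 43.9 CPM in LPS controls, against 29.8, 17.9 and 16.6 CPM in saline knockouts and 25.8, 15.9 and 28.2 CPM in saline controls. There the groups overlapped and the value was 0.60 (SE 0.22, edgeR unadjusted p 0.015, adjusted p 0.231). With no filter on low counts it was 0.64 and called (adjusted p 0.0292).

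The difference between the cell types was tested in a fit over all 24 libraries, where 3 members were called and 2.60% of 24607 genes were. The LPS response of microglia minus that of astrocytes was −4.35 for Gsdmd (SE 0.80, edgeR adjusted p 0.00246), −4.03 for Il1rn (SE 0.93, adjusted p 0.0153) and −1.91 for Il18bp (SE 0.35, adjusted p 0.00275). For Acod1 it was −0.81 (95% interval −2.39 to 0.76, adjusted p 0.721) and for Il1b 1.61 (0.18 to 3.04, adjusted p 0.26), neither of them called. With the neutrophil marker score as a covariate none of the 3 stayed called, at −4.03 for Gsdmd (adjusted p 0.123), −4.64 for Il1rn (0.129) and −1.73 for Il18bp (0.211). In astrocytes that score did not overlap between LPS and saline, so this fit cannot tell neutrophils from LPS. Brain region and preparation differed along with cell type and cannot be told apart from it.

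Markers of other cells reached higher sums in LPS astrocyte libraries than after saline. The 14 microglia markers summed to 180 to 786 CPM after LPS and 174 to 262 CPM after saline, and the 10 monocyte markers to 34.8 to 164 CPM and 30.9 to 60.4 CPM. Mean log2 CPM of the monocyte markers ran from −1.20 to 0.61 after LPS and from −2.05 to −1.70 after saline, without overlap. The 13 neutrophil markers summed to 2.57 to 26.2 CPM after LPS and 0.410 to 2.16 CPM after saline, without overlap. Over the 6 libraries of each injection, S100a8 had 275 counts after LPS and 2 after saline, S100a9 260 and 3, Retnlg 62 and 3, Mmp9 49 and 0, and Csf3r 216 and 120, while Camp, Elane and Ltf had 0 in both. The 8 endothelial and pericyte markers summed to 26.8 to 97.9 CPM after LPS and 8.69 to 29.2 CPM after saline, and their mean log2 CPM ran from 1.04 to 3.22 after LPS and from −0.91 to 0.63 after saline, without overlap. In the first LPS library of each genotype, Gsdmd stood at 10.2 CPM in the knockout and 10.4 CPM in the control, Il18bp at 31.5 and 26.2 CPM and Il1rn at 4.48 and 2.26 CPM. The same libraries had microglia markers at 180 CPM in the knockout and 182 CPM in the control, neutrophil markers at 2.57 and 5.98 CPM, endothelial and pericyte markers at 72.9 and 37.2 CPM, and monocyte markers at 164 and 119 CPM, the highest 2 sums of the 12 libraries. The second LPS knockout held the highest Gsdmd of the 12 libraries, at 12.3 CPM, with Il1rn at 1.18 CPM and Il18bp below the first LPS knockout. Its sums of microglia, neutrophil, and endothelial and pericyte markers were also the highest, at 786, 26.2 and 97.9 CPM. By mean log2 CPM of the monocyte markers the second LPS knockout was highest, at 0.61. The first LPS knockout stood at −0.61 and the first LPS control at −0.24. The monocyte sum rested on few genes, as the first saline control held 56.7 CPM with 7 of the 10 markers at 0. The parts of microglia, monocytes and endothelial cells in the members' values were not tested. With the neutrophil score as a covariate Acod1 (6.82, edgeR adjusted p 0.0205) and Il1rn (6.24, adjusted p 0.0305) remained called in astrocytes. Il18bp (1.94, adjusted p 0.101), Casp1 (1.49, adjusted p 0.612) and Gsdmd (4.14, adjusted p 0.142) did not. No member stayed called within a genotype, with adjusted p of 0.1 for Acod1 in knockouts and 0.0881 in controls. In astrocytes the neutrophil score ran from −2.37 to −0.59 after LPS and from −2.99 to −2.77 after saline. The fits with that score therefore cannot tell neutrophils from LPS.

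Loss of Serpine2 left no member called, in either cell type, after either injection or averaged over both. In microglia 0 of 10 members were called after saline, after LPS or on average, where edgeR called 0%, 0% and 0.00450% of all genes, and at an unadjusted p under 0.05 there were 351, 335 and 449 genes. In astrocytes 0 members were called where 0.00550% of all genes, 1 gene, were called in each of the 3 comparisons, and 500, 497 and 540 genes had an unadjusted p under 0.05. Among the members, unadjusted p-values under 0.05 numbered 1, 2 and 3 in microglia and 1, 0 and 1 in astrocytes. DESeq2 called 0 members in all 6 comparisons as well, and over all genes 1, 1 and 4 in microglia and 2, 1 and 1 in astrocytes.

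Acod1 had the smallest p of the 10 members in microglia averaged over injections. It averaged 41.2 ± 12.1 CPM in LPS knockouts and 22.5 ± 13.5 CPM in LPS controls, and 0.884 ± 0.527 CPM in saline knockouts and 0.231 ± 0.095 CPM in saline controls (SD, n = 3 each). In saline the 3 knockouts lay above the 3 controls, and after LPS the groups overlapped. Averaged over injections, knockouts differed from controls by 1.42 log2 units (95% interval 0.46 to 2.38, edgeR unadjusted p 0.00646, adjusted p 1). With no filter on low counts it was 1.44 and called (edgeR adjusted p 0.0376), where 0.0992% of all genes were called. Il1b had 0.86 (0.09 to 1.63, unadjusted p 0.0303) and Il1rn 0.68 (0.02 to 1.34, unadjusted p 0.0433), with adjusted p of 1 for both. The neutrophil markers summed to 1419 to 2607 CPM in saline knockout microglia and 762 to 903 CPM in saline controls, and to 415 to 1102 CPM in LPS knockouts and 683 to 1019 CPM in LPS controls. Of the 9 monocyte markers tested, 9 were higher in knockout microglia after saline, after LPS and on average, with median log2 fold changes of 0.88, 0.63 and 0.74 where the medians of all genes were −0.05, 0.00 and −0.01, and none of them was called. The first LPS knockout, the highest microglia library for Acod1, Il1b and Il1rn, also had the highest monocyte sum, at 405 CPM. The part of monocytes was not tested. With the neutrophil score as a covariate the averaged value was 1.43 for Acod1, 0.47 for Il1b and 0.63 for Il1rn. In astrocytes Acod1 was at 2.29 (0.30 to 4.27, unadjusted p 0.0266), resting on 3 saline counts. Il18bp was at −1.35 in saline astrocytes (−2.31 to −0.40, unadjusted p 0.0082), where knockouts averaged 2.80 ± 0.599 CPM and controls 7.17 ± 1.42 CPM without overlap (n = 3 each).

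**Figure D4:**
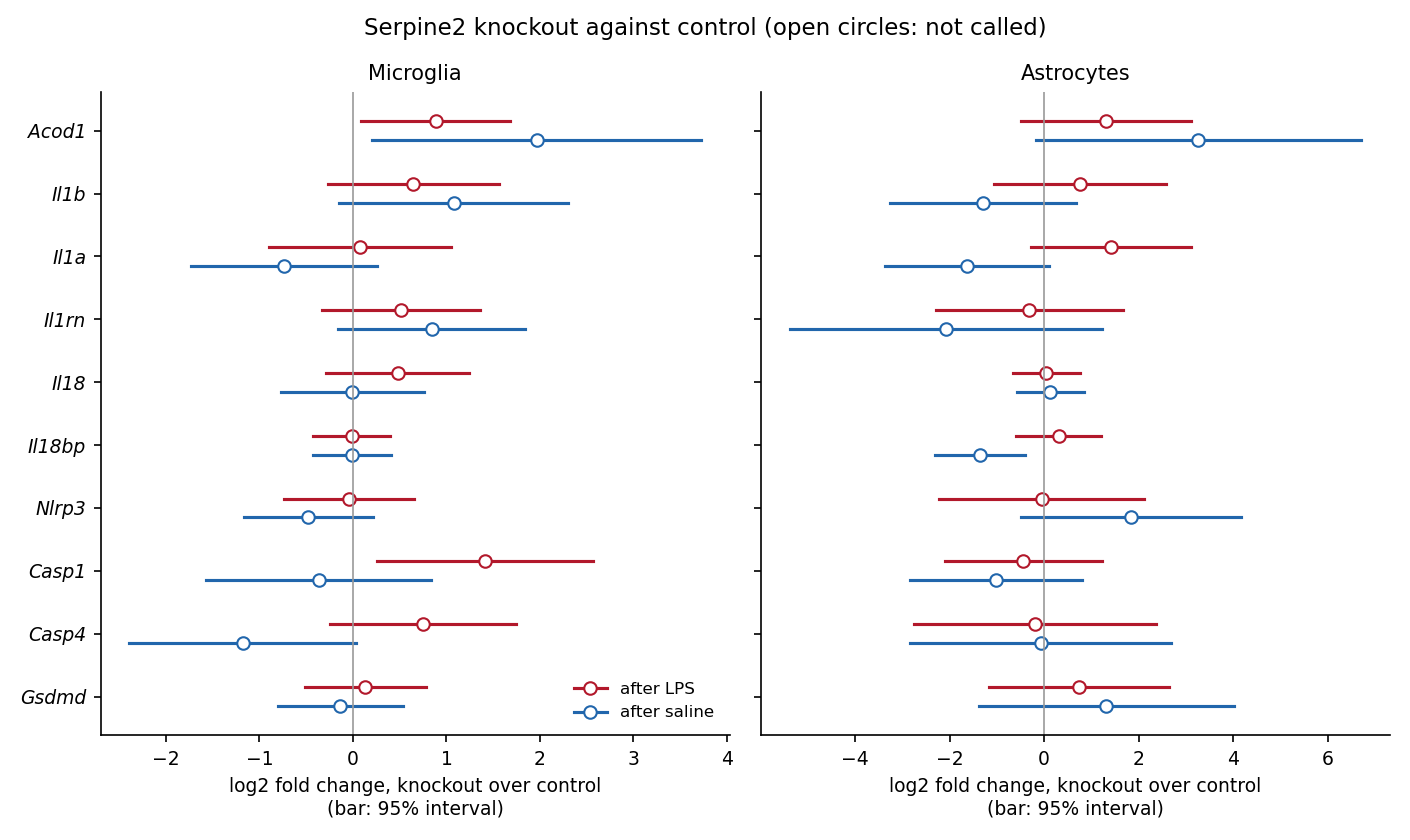
Log2 fold change of Serpine2 knockout over control for the 10 genes, with 95% intervals from the edgeR fit, after LPS (upper of each pair) and after saline, in microglia (left) and astrocytes (right). All circles are open because no gene shown passed an adjusted p of 0.05.

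Whether the genotypes differed in their LPS response was tested as an interaction, and 0 members were called in either cell type, where edgeR called 0% of all genes in each and 251 microglia and 473 astrocyte genes had an unadjusted p under 0.05. DESeq2 also called 0 members, with 1 gene in all in microglia and 0 in astrocytes. The largest microglial values were those of the caspases, with the response of knockouts minus that of controls at 1.93 for Casp4 (95% interval 0.36 to 3.50, unadjusted p 0.0193) and 1.78 for Casp1 (0.11 to 3.45, unadjusted p 0.0384). The value for Casp1 went with 7.87 CPM in the first LPS knockout, against 3.38 and 1.85 CPM in the others. Casp4 was also highest in that library, at 6.37 CPM against 2.75 and 2.03 CPM in the other LPS knockouts. For Acod1 it was −1.08 (−3.02 to 0.86). In astrocytes it was 3.05 for Il1a (0.63 to 5.46, unadjusted p 0.0165) and 1.66 for Il18bp (0.35 to 2.97, unadjusted p 0.0161). Simulated 4-fold changes between LPS knockouts and controls were recovered by edgeR for 85% of genes in microglia and 64% in astrocytes, and 2-fold changes for 19% and 13%. The simulation covered that comparison and not the interaction. Its changed genes were drawn above a mean count that Casp4 did not reach in either cell type. Recovery for the interaction, or for genes of such low counts, was therefore not measured.

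Other genes of the interleukin-1 family were taken from a list of 25. In microglia 19 were tested with LPS averaged over genotypes, of which 3 were called higher and 1 lower, with a median of 0.05. Over all genes tested in microglia 2.70% were called. Irak3, a brake on receptor signalling, averaged 14.5 ± 6.58 CPM in LPS knockouts and 8.03 ± 1.37 CPM in LPS controls, against 2.68 ± 1.44 CPM in saline knockouts and 1.64 ± 1.09 CPM in saline controls (SD, n = 3 each), a change of 2.45 (edgeR adjusted p 0.0011). Il1r2, the decoy receptor, rose by 2.32 (adjusted p 0.00755) and the adaptor gene Myd88 by 0.84 (adjusted p 0.0382). Il1rl1, the interleukin-33 receptor gene, fell by 2.21 (adjusted p 0.00562). In astrocytes 15 were tested, with a median of 0.09. Of these, 4 were called higher and 2 lower, where 6.90% of all genes were called. Il1r1, the signalling receptor of interleukin-1, rose by 1.87 (adjusted p 0.00792), Myd88 by 1.86 (0.0262), Irak3 by 2.92 (0.0185) and Il18rap, a subunit of the interleukin-18 receptor, by 6.72 (0.0202). Il18rap ranged from 0.0510 to 9.34 CPM after LPS and reached at most 0.108 CPM after saline. The alarmin gene Il33 fell by 0.91 (adjusted p 0.00618), at 66.2 ± 21.2 CPM in LPS knockouts and 81.0 ± 22.4 CPM in LPS controls against 121 ± 8.53 CPM in saline knockouts and 155 ± 12.4 CPM in saline controls (n = 3 each). Irak2, a kinase of the same pathway, fell by 0.62 (adjusted p 0.0304).

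A list of 26 sensors, adaptors and pyroptosis genes had 22 tested in microglia, with a median of 0.05. Of these, 3 were called higher and 1 lower, where 2.70% of all genes were called. The pyrin gene Mefv rose by 3.13 (edgeR adjusted p 0.000272), Gbp2 by 2.67 (adjusted p 0.000689) and Gbp5, a GTPase gene of the same family, by 1.27 (adjusted p 0.0399). Txnip, whose product binds thioredoxin, fell by 1.35 (adjusted p 0.00963). In astrocytes 18 were tested, with a median of 0.95, and 5 were called higher and 0 lower, where 6.90% of all genes were called. The 5 were Gbp2 (6.75, adjusted p 0.0144), Casp12 (5.79, 0.0366), Gbp5 (5.56, 0.0293), Naip2 (3.32, 0.0213) and Casp8 (1.96, 0.00981), the last a gene of the apical caspase of cell death. Gbp and Naip genes have near-identical copies that may share reads, so their values are uncertain. Pycard, the gene of the adaptor that links sensors to caspase-1, was not called, at 0.17 in microglia (adjusted p 0.654) and 0.47 in astrocytes (adjusted p 0.544).

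The substrate of Acod1 comes from the tricarboxylic acid cycle. Over all genes tested with LPS averaged over genotypes, 2.70% were called in microglia and 6.90% in astrocytes. Of 22 tricarboxylic acid cycle genes 0 were called in either cell type by edgeR, with medians of 0.10 in microglia and 0.06 in astrocytes, and 1 and 3 of them had an unadjusted p under 0.05. The lowest and highest values were −0.45 and 0.42 in microglia, and −0.39 and 0.49 in astrocytes. Of 14 genes of Nrf2, a stress factor that itaconate is known to activate, and its targets, 2 were called higher in each cell type. In microglia Hmox1, the gene of haem oxygenase, averaged 74.7 ± 16.2 CPM in LPS knockouts and 54.1 ± 29.6 CPM in LPS controls, against 8.98 ± 5.10 CPM in saline knockouts and 5.42 ± 2.77 CPM in saline controls (SD, n = 3 each), a change of 3.22 (edgeR adjusted p 5.43e-05). G6pdx, of the pentose phosphate pathway, rose by 0.88 in microglia (adjusted p 0.00132) and 0.78 in astrocytes (adjusted p 0.00854), and Gsr, the gene of glutathione reductase, by 1.32 in astrocytes (adjusted p 0.00396).

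**Figure D5:**
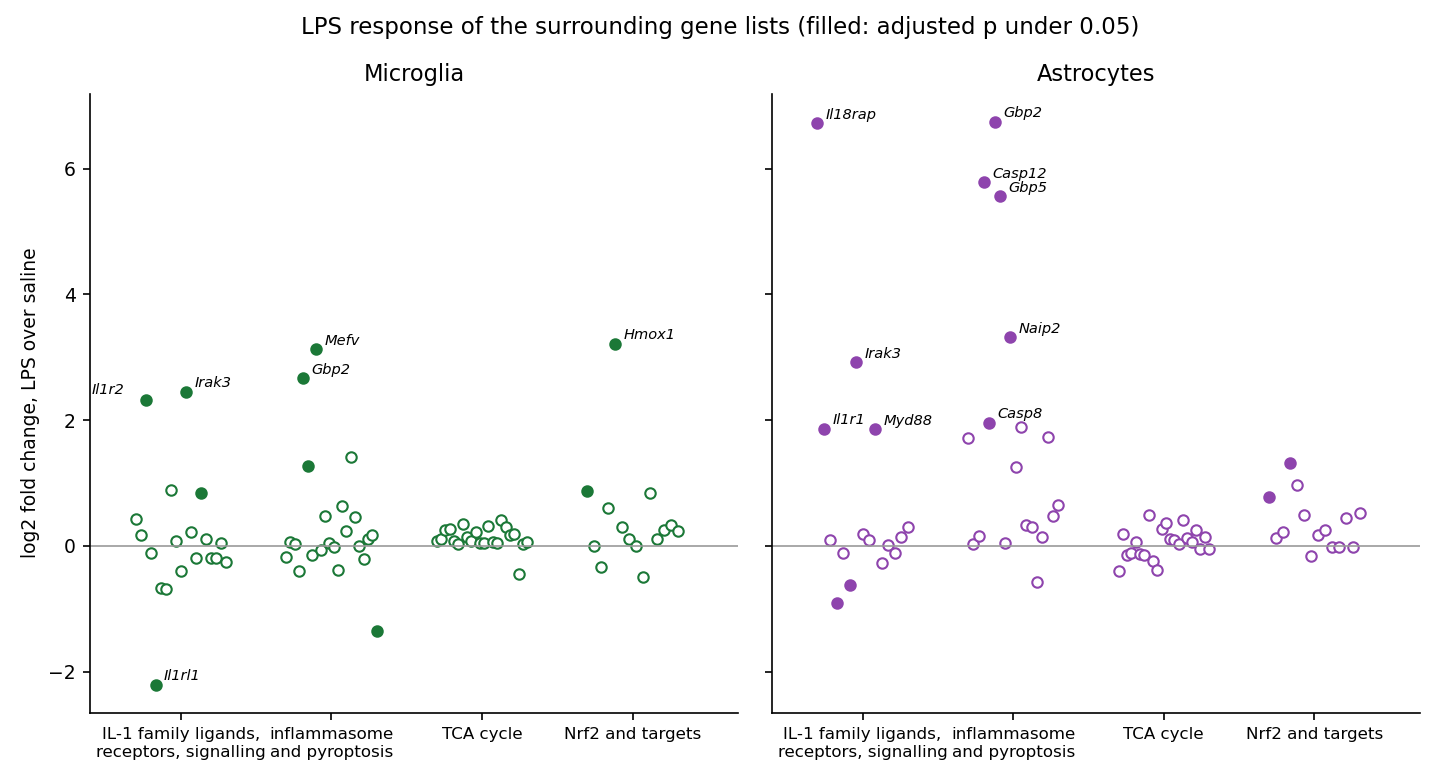
Log2 fold change of LPS over saline, averaged over genotypes, for every tested gene of the 4 surrounding lists in microglia (left) and astrocytes (right), in alphabetical order within a list. Filled points passed an adjusted p of 0.05, and called genes beyond 1.5 in either direction are named. No tricarboxylic acid cycle gene is filled, and their medians are 0.10 in microglia and 0.06 in astrocytes. Of all genes tested, 2.70% passed in microglia and 6.90% in astrocytes.

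The genes whose log2 CPM followed that of Acod1 most closely over the 12 microglia libraries were Itgal (Pearson r 0.987), Pilra (0.986), Fgr (0.985), Tgfbi (0.982) and Aurkb (0.982). For Il1b in microglia they were Tnfaip2 (0.983), Wfdc17 (0.977), Stfa3 (0.969), Acod1 (0.969) and Fgr (0.963). In astrocytes the values were lower, 0.870 to 0.909 for Il1b and 0.883 to 0.902 for Casp4, led by Elfn1 and Klf5. These are descriptions over libraries that share the LPS and saline groups, and the 5 highest among the tested genes that averaged at least 1 CPM.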

How the data were processed

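RNA from panned cells was amplified with the Ovation V2 kit and made into libraries with NEBNext Ultra, per the labels' protocols. The authors deposited raw counts per Ensembl gene for each library, with HTSeq summary rows at the end. The submitters' processing notes name STAR 2.6.0c, HTSeq, GRCm38 and GRCm39, the genome builds without a role. The strand setting and annotation release are not given in the sources used here. Reads outside gene counts were 70.6% to 79.3% of a library in microglia and 40.0% to 45.7% in astrocytes, and stayed out of all totals.

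Counts were analysed per cell type with edgeR 4.0.16 in R 4.3.3 (TMM, filterByExpr at min.count 10 and min.total.count 15, robust quasi-likelihood fit over 12 libraries), or over 24 libraries and the shared genes for the difference between cell types. P-values were adjusted by Benjamini-Hochberg over all genes tested, with a threshold of 0.05. Standard errors and intervals come from the F statistic. Log2 CPM used a prior count of 2. Exon lengths and coordinates are those of GENCODE M21 on GRCm38, and promoters those of RefSeq. The exact intervals of count ratios, and the floors, cover counting error only.

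Alternatives were DESeq2 1.42.0, no filter, a minimum count of 50, only the groups compared, sex as labelled or as read from transcripts, a neutrophil marker score, the replicate number as a block and each library left out. Leaving out the third LPS astrocyte libraries was chosen after seeing the data. The fit was tested on simulated data.

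Deviations of knockout and control libraries with the same number correlated at 0.157 to 0.354 in LPS astrocytes, over 0.1 in all 3 pairs, so the numbers were taken to pair those libraries. In the other sets they ranged from −0.167 to 0.442 and share only a number. No member was called in LPS knockout against control astrocytes with or without the block. Of 24 pairs of replicates none held identical counts.

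The 10 members, the gene lists and the tests were chosen with earlier results of these data known. Named genes are the members, the genes of the fixed lists that passed the threshold, and the 5 genes most like a member. A sentence on the adaptor Pycard and the use of Gbp2 for the third libraries were added after their values were seen.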

Additional observations from a re-analysis of the deposited data

Results flagged for a closer look

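For 3 members the LPS response differed between the cell types by a test of the difference itself, in the fit over 24 libraries. The response of microglia minus that of astrocytes was −4.031 log2 units for Il1rn, −1.906 for Il18bp and −4.352 for Gsdmd, each past the threshold with edgeR. In saline astrocytes Il1rn ran from 0 to 0.324 CPM, Il18bp from 2.34 to 8.81 CPM and Gsdmd from 0 to 0.488 CPM. In saline microglia they ran from 0.861 to 3.68, 48.2 to 61.8 and 15.9 to 29.8 CPM. Each of the 3 differences stayed called in 24 of 24 fits that left out 1 library, and none of them with the neutrophil marker score as a covariate. That score did not overlap between LPS and saline astrocytes, so the fit with it cannot tell neutrophils from LPS.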

How the results depend on the processing

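Acod1 and Il1b in microglia, and Acod1 and Il1rn in astrocytes, kept their direction and their call with LPS averaged over genotypes under all 20 alternatives run, at 5.76 to 6.36, 3.25 to 4.12, 6.18 to 7.02 and 5.06 to 7.59. Il1rn in microglia kept its call in 19 of 20, and Il18bp and Gsdmd in astrocytes in 20 of 21 each. With the neutrophil marker score, members called fell to 0 in knockout microglia, control astrocytes, knockout astrocytes and the difference between cell types. They fell to 2 in astrocytes averaged. In that order, 0.00450%, 0.269%, 0.165%, 0.232% and 0.775% of all genes were called. Il1a in microglia (0.24) and Il18 in astrocytes (0.014) turned positive. In astrocytes and knockout microglia the score did not overlap between injections, so neutrophils and LPS cannot be told apart there. The cause was not tested. With no filter on low counts, members called were 4 in knockout microglia (1.58% of all genes), 5 in microglia averaged (2.95%), 1 in knockout against control microglia averaged (0.0992%) and 4 in control astrocytes (2.35%); the cause was not tested. A minimum count of 50 left only Il18, Il18bp and Gsdmd of the members tested in astrocytes. There 1 was called in controls (1.49% of all genes), 2 in knockouts (2.48%) and 2 averaged (9.46%). Without the third LPS astrocyte libraries control astrocytes had 4 (3.80%). Leaving out 1 library gave 0 to 4 in control astrocytes and 1 to 5 in knockout astrocytes, and values from −0.24 to 0.15 for Il1a and −0.29 to 0.48 for Casp1 in microglia averaged. The fit with the replicate block called 3 members in knockout microglia, where 2 were called without it, and 4 in astrocytes averaged, where 5 were. For LPS against saline this block joins libraries of different injections that share only a number. It called 0 members in every knockout against control comparison.

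Over all genes, LPS against saline averaged over genotypes gave 600 calls in microglia, with 927 by DESeq2, 1191 with no filter, 152 with the neutrophil score and 420 to 1178 with 1 library left out. In astrocytes it gave 1255, with 1917 by DESeq2, 2033 with no filter, 141 with the neutrophil score, 2232 without the third LPS libraries and 727 to 1714 with 1 left out. Depth limits the members near 0 in saline, whose fold changes rest on a few counts.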
